A study of Mus musculus with 6 samples.

Results

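The genes described here are 10 that carry glucose into the cell and break it down to lactate: the glucose transporters Slc2a1 and Slc2a3, the hexokinases Hk1 and Hk2, and the glycolytic enzymes Pfkl, Aldoa, Tpi1, Pgk1, Eno1 and Ldha. They were chosen by name from a fixed list, and each was read through a probe annotated to that gene alone. A probe of this kind was at hand for 8 of the 10, among 13840 named genes in all, and each of the 8 has 1 probe. Pfkl and Eno1 were not analysed here. The tissue was presomitic mesoderm, the unsegmented tail tissue from which somites are formed, dissected from mouse embryos at E10.5. Knockout embryos (Nrarp knockout, with LacZ in place of the coding region of Nrarp, an intracellular modulator of Notch signalling) were set against wild-type littermates from the same crosses of heterozygous parents. Each genotype had 3 one-colour arrays, and these are called replicates 1, 2 and 3 after their labels. For each genotype 12 pieces of presomitic mesoderm were collected, but the labels do not say how these were divided among the 3 arrays. The p-values therefore measure the spread between arrays, which may be technical.

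Glycolysis converts glucose to pyruvate in the cytosol and yields ATP without oxygen. Facilitative transporters bring glucose in, hexokinase traps it by phosphorylation, phosphofructokinase sets much of the flux, aldolase and triose phosphate isomerase split and interconvert the sugars, and phosphoglycerate kinase makes ATP. Lactate dehydrogenase A turns the pyruvate into lactate, which regenerates the NAD+ that the pathway needs. The tailbud and posterior presomitic mesoderm of vertebrate embryos are known for aerobic glycolysis, graded from posterior to anterior and linked to FGF and Wnt signalling. Several of these genes are also textbook targets of the hypoxia-inducible factor HIF, which recognises the core letters ACGTG or GCGTG.

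The promoters of 5 measured genes are shown because they carry the ACGTG core and span the pathway from uptake to lactate. RefSeq promoter windows (build GRCm38.p6, 250 bases before to 50 after each start) were at hand for 9 of the 10 genes, in 15 windows; Slc2a3 was not among them. Each line is a 60-base stretch upstream of the start, 5′ to 3′ on the gene's strand, with ACGTG or its reverse complement in capitals. The positions are Slc2a1 at chr4:119108682-119108741 (plus strand), Hk2 at chr6:82774474-82774533 (minus strand), Aldoa at chr7:126799348-126799407 (minus strand), Pgk1 at chrX:106186942-106187001 (plus strand) and Ldha at chr7:46845730-46845789 (plus strand).
Slc2a1: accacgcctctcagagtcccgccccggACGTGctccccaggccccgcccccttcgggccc
Hk2: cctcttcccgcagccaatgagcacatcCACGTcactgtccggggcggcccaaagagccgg
Aldoa: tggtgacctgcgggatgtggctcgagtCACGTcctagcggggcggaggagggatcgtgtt
Pgk1: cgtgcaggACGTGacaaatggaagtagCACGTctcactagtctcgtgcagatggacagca
Ldha: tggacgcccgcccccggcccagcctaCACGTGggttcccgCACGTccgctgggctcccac
Searched on both strands, ACGTG occurred in 7 of the 15 windows (46.7%) and in 6447 of all 32851 promoter windows of that length (19.6%). Its capitals in Ldha include the palindrome CACGTG, the E-box, in which ACGTG reads on both strands. GCGTG occurred in 8 of the 15 windows (53.3%) and in 10639 of all windows (32.4%). Some windows of a gene overlap, so a site can count more than once. The Aldoa windows with ACGTG hold the same site, and overlapping Eno1 windows share their GCGTG sites. ACGTG was found in a window of 6 of the 9 genes, the 5 printed and Hk1. These are matches of letters only.

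Presomitic mesoderm markers were read on all arrays. Of 12 such markers 10 had a probe, and their summed scaled intensity was 1515 to 1792 in wild type and 1598 to 1741 in knockout. Scaled intensity means the deposited brightness of a probe, which the authors had scaled to array medians of 0.981 to 0.993. Nrarp read 318, 429 and 448 in wild type and 14.3, 42.5 and 23.3 in knockout, and whether its probe lies in the replaced region is not known here. The replicate 1 arrays, 1 of each genotype, stand apart from the other 4: their 75th percentile was 42.7 and 56.9 times their 10th, against 12.4 to 16.0 times on the rest. The 8 measured genes are therefore given array by array, and over replicates 2 and 3 only where this changes their direction or overlap. Array signal cannot tell fewer cells of a type from less RNA per cell.

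No difference between genotypes passed the test for any of the 8 measured genes. In limma on log2 intensity the adjusted p was 1.00 for each without and 0.999 for each with the replicate number as a block, and 0 of 8 had an unadjusted p under 0.05 in either fit. The background was likewise near empty: over all 33012 probes 0% were called without the block and 0.00606% with it (2 probes). Without the block Nrarp itself, the targeted gene, was not called, since the smallest limma adjusted p of all probes was 0.428. A gene not called in that fit is therefore not shown to be unchanged. What did vary was the replicate: 6 of the 8 genes, both transporters, Hk1, Aldoa, Tpi1 and Pgk1, read 3.95- to 19.9-fold higher on the replicate 1 arrays than on the other 4, whereas Hk2 read 1.31-fold higher and Ldha 1.43-fold lower. Of all named genes 27.4% read at least 2-fold higher on replicate 1, and of those with mean log2 intensity above 0 the share was 40.1%. The plot of each gene by array shows the overlap of the genotypes and the replicate difference.

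**Figure D1:**
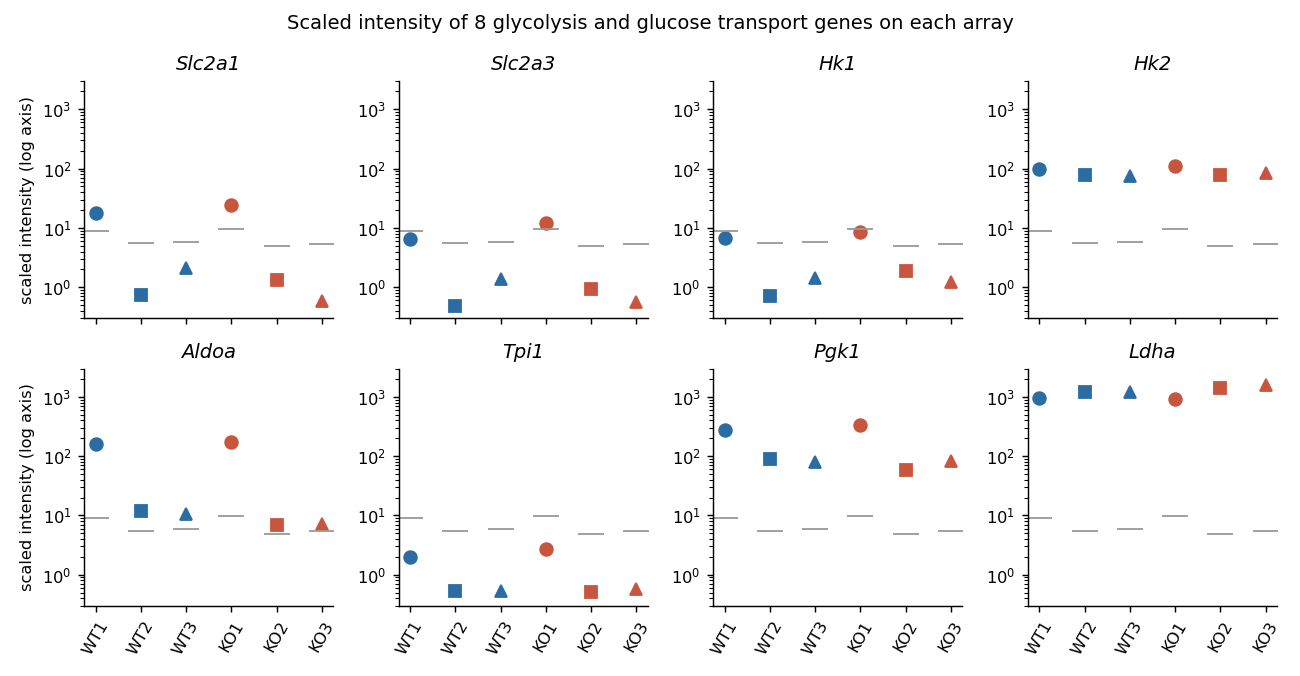
Scaled intensity (log axis) of the 8 measured genes on each array, wild type in blue and knockout in red, with circles, squares and triangles for replicates 1, 2 and 3 and grey ticks at each array's 75th percentile. Both circles lie above all other arrays for every gene except Ldha, where they lie below, and the genotypes overlap in all 8 panels.

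Slc2a1 (probe 440799) encodes GLUT1, the widely expressed transporter for basal glucose uptake. It read 18.0, 0.739 and 2.12 on wild-type arrays 1, 2 and 3, and 24.2, 1.31 and 0.588 on knockout arrays 1, 2 and 3. Both replicate 1 arrays were high, the other 4 lay between percentiles 32.3 and 63.4 of their array's probes, and the genotypes overlapped. The means were 6.97 ± 9.62 in wild type and 8.69 ± 13.4 in knockout (SD, n = 3 each), so the spread exceeded the mean in each genotype. The log2 difference, knockout minus wild type, was -0.20 with a 95% interval of -1.29 to 0.89 in the blocked fit. Without the block the interval was -3.85 to 3.45, since the replicate 1 arrays then count as spread. Within replicate numbers the differences were 0.42, 0.83 and -1.85, so the sign was not shared.

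Slc2a3 (probe 499837) encodes GLUT3, a transporter of high affinity known from neurons and early embryos. Its wild-type values were 6.62, 0.491 and 1.39, and its knockout values 12.0, 0.927 and 0.559. As for Slc2a1, only the replicate 1 arrays lay well above the array median, which Slc2a3 passed on 3 of 6 arrays. The log2 difference was 0.15 (95% interval -0.95 to 1.25 with the block), made up of 0.86 and 0.92 in replicates 1 and 2 and -1.31 in replicate 3. The direction of this difference turned with the setting: it was -0.67 with estimated array weights and -0.20 over replicates 2 and 3 only.

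Hk1 (probe 918540) encodes the broadly expressed hexokinase that binds mitochondria. It read 6.86, 0.719 and 1.42 in wild type and 8.43, 1.89 and 1.21 in knockout. The replicate 1 arrays were again high and the genotypes overlapped. Its log2 difference of 0.48 is the largest upward difference among the 8 genes, with a 95% interval of -0.36 to 1.33 in the blocked fit, and it rested on replicate 2 (1.40) more than on replicates 1 (0.30) and 3 (-0.24). Hk2 (probe 364783), the inducible hexokinase of proliferating and embryonic cells, behaved differently. It read 98.4, 79.0 and 74.3 in wild type and 108.9, 78.8 and 83.2 in knockout, the narrowest range of the 8 genes (0.55 on the log2 scale, against 5.36 for Slc2a1). Its probe was above the 75th percentile on all 6 arrays, whereas the Hk1 probe was above it on 0. The Hk2 difference was 0.10, with a 95% interval of -0.14 to 0.34 in the blocked fit, and the means were 83.9 ± 12.8 and 90.3 ± 16.3 (SD, n = 3 each).

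The third step, phosphofructokinase, is covered by the muscle and platelet isoforms, since the liver isoform Pfkl was not analysed here. Pfkm read 4.47, 0.988 and 0.622 in wild type and 6.76, 0.937 and 0.978 in knockout. Pfkp read 5.11, 23.1 and 22.3 in wild type and 6.09, 27.3 and 20.7 in knockout. The isoforms thus had opposite patterns over replicates: Pfkm was 6.34-fold higher and Pfkp 4.16-fold lower on replicate 1. Their log2 genotype differences were 0.39 for Pfkm (95% interval -0.43 to 1.21 in the blocked fit) and 0.13 for Pfkp (-0.23 to 0.49), and both overlapped between genotypes.

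Aldoa (probe 436988), the aldolase of muscle and embryonic tissue, read 159, 11.6 and 10.4 in wild type and 175, 6.93 and 7.25 in knockout. The replicate 1 arrays were 18.9-fold above the others, and the array percentile of the probe went from 77.5 to 81.8 on those others to 96.5 on both replicate 1 arrays. Its log2 difference was -0.37 (95% interval -0.79 to 0.04 in the blocked fit), with 0.14 in replicate 1 and -0.75 and -0.52 in replicates 2 and 3. Over replicates 2 and 3 only, both knockout arrays lay below both wild-type arrays, as they did for 17% of all named genes, at a log2 difference of -0.63 (SE 0.241, unadjusted p = 0.0261, limma adjusted p = 0.995). That difference did not pass the test over all probes.

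Tpi1 (probe 359347), triose phosphate isomerase, read 2.01, 0.526 and 0.524 in wild type and 2.76, 0.517 and 0.575 in knockout. It passed the array median only on the replicate 1 arrays, so its probe was dim on the other 4. The log2 difference was 0.19 (95% interval -0.79 to 1.16 in the blocked fit). Pgk1 (probe 417446), phosphoglycerate kinase, which makes the first ATP of the pathway, read 277, 88.3 and 81.0 in wild type and 332, 58.7 and 83.0 in knockout. Replicate 1 was 3.95-fold higher, and the low array among the rest was knockout replicate 2. The log2 difference of Pgk1 was -0.10 (95% interval -0.46 to 0.26 in the blocked fit), with means of 149 ± 111 and 158 ± 151 (SD, n = 3 each).

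Ldha (probe 897674), which makes lactate from pyruvate, was in the top 1% of probes on every array (percentiles 99.1 to 99.6). It read 946, 1208 and 1218 in wild type and 923, 1396 and 1566 in knockout. Here the replicate 1 arrays were the lowest, and over replicates 2 and 3 both knockout arrays lay above both wild-type arrays, as for 14.9% of all named genes. The means were 1124 ± 154 and 1295 ± 333 (SD, n = 3 each), and the log2 difference was 0.18 with a 95% interval of -0.05 to 0.41 in the blocked fit. Over replicates 2 and 3 only it was 0.29 (unadjusted p = 0.0807, limma adjusted p = 0.995), so the difference was not beyond the spread between arrays. With replicate 1 left out, the genotypes thus did not overlap in 1 of 8 genes upward and 1 of 8 downward, counts near those shares of all named genes.

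**Figure D2:**
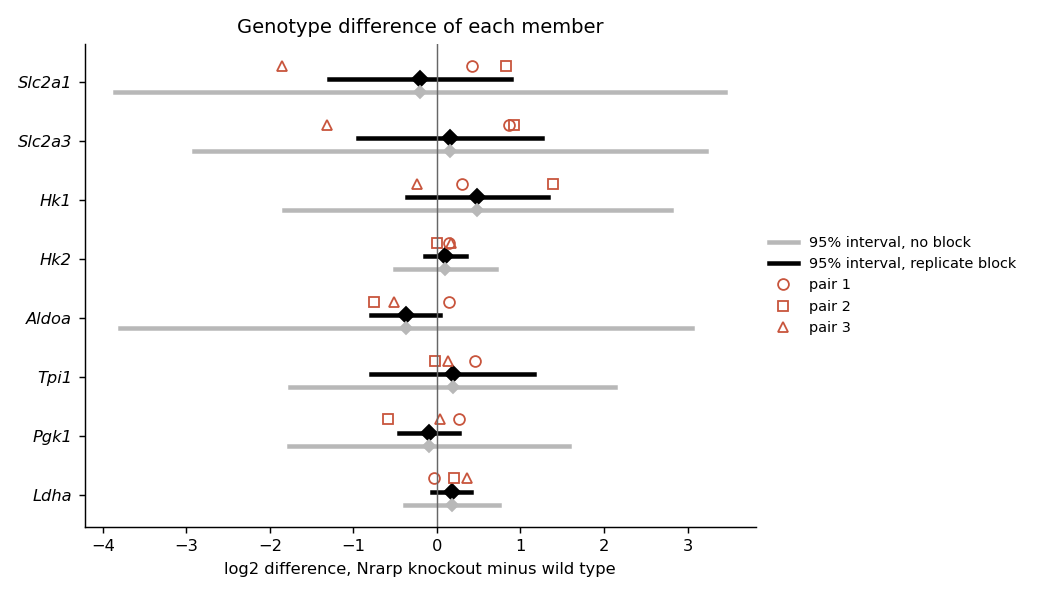
Log2 difference in intensity, knockout minus wild type, for the 8 measured genes, with 95% intervals from limma without (grey) and with (black) the replicate block and open symbols for the difference within each replicate number. Every interval includes 0; in both fits those of Hk2 and Ldha are the narrowest, and that of Slc2a1 is the widest without the block.

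As a list, the genes lay about as far from 0 as named genes at large. Of the 8, 5 lay above 0 and 3 below it on the log2 scale, the median being 0.13. Among all named genes 6856 lay above 0 and 6984 below it, and the median was -0.00. The median size of the difference, sign ignored, was 0.18 for the 8 and 0.19 for all named genes. It was 0.13 for named genes whose mean log2 intensity was above 0, a level that all of the 8 but Tpi1 reached. In 0 of the 8 did the 3 knockout arrays all lie on 1 side of the 3 wild-type arrays, where 1.83% of named genes lay wholly higher and 1.48% wholly lower. The exact permutation test, two-sided, gave p of 0.6 to 0.9 for the 8 genes, and 0.1 is the smallest value that 3 against 3 arrays allow. Within replicate 1 the median difference was 0.28 with 7 of 8 genes positive. It was 0.10 with 4 of 8 within replicate 2, and -0.10 with 4 of 8 within replicate 3. The positive share of all named genes within a replicate number was not worked out. The 75th percentile of the array was 8.88 in wild type and 9.71 in knockout for replicate 1. It was 5.52 and 4.90 for replicate 2, and 5.88 and 5.43 for replicate 3. In the blocked fit a 2-fold change (1 on the log2 scale) in either direction lies outside the 95% intervals of Hk2, Aldoa, Pgk1 and Ldha. Without the block it lies within those of Aldoa (-3.80 to 3.05) and Pgk1 (-1.77 to 1.58). For Slc2a1 a 2-fold lower level, and for Slc2a3, Hk1 and Tpi1 a 2-fold higher level, lies within the blocked interval. Changes of that size were therefore not excluded for these 4 genes in either fit with 3 arrays a genotype. Without the block they were not excluded for Aldoa and Pgk1 either, and the pairing that the block assumes rests on replicate 1.

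The difference between replicate 1 and the other replicates was far larger than that between genotypes, and it was present in each genotype by itself. It is given as a description, since the labels name no batch and these arrays were seen to stand apart in earlier work on these data. On the log2 scale, replicate 1 minus the mean of replicates 2 and 3 was 3.85 in wild type and 4.78 in knockout for Slc2a1, 3.003 and 4.06 for Slc2a3, and 2.76 and 2.48 for Hk1. It was 3.85 and 4.63 for Aldoa, 1.94 and 2.34 for Tpi1, and 1.71 and 2.25 for Pgk1. All 6 were thus higher on both replicate 1 arrays. For Hk2 it was 0.36 and 0.43, and for Ldha -0.36 and -0.68. At 2-fold or more, 6 of 8 genes were higher, against 27.4% of all named genes and 40.1% of the 8323 named genes whose mean log2 intensity was above 0. The arrays did not overlap, with replicate 1 higher, in 7 of 8 genes, against 38.1% of named genes and 56.8% of those with mean log2 above 0.

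ACGTG was found in a window of Slc2a1, Hk1, Aldoa and Pgk1, which read at least 2-fold higher on replicate 1. It was also found for Hk2 and Ldha, which did not. Tpi1, at least 2-fold higher as well, had no ACGTG in its window, and Slc2a3 had no window. Whether these letters bear on the replicate 1 values was not tested. After quantile normalization, which gives all arrays the same distribution, replicate 1 still read higher by 3.87 (Slc2a1), 3.11 (Slc2a3), 2.06 (Hk1), 3.90 (Aldoa), 2.10 (Tpi1) and 1.80 (Pgk1) on the log2 scale, and Ldha lower by a difference of -0.68. Centring each array on its 75th percentile moved the median replicate 1 difference of all named genes by -0.78, from 0.07 to -0.71. The same 6 genes remained at least 2-fold higher, at 1.20 (Pgk1) to 3.54 (Slc2a1). Of all named genes, 14.5% were at least 2-fold higher after this centring and 20.9% after quantile normalization. Hk2 turned from 0.39 to -0.38 with the centring, so the direction of Hk2 depends on the scaling.

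**Figure D3:**
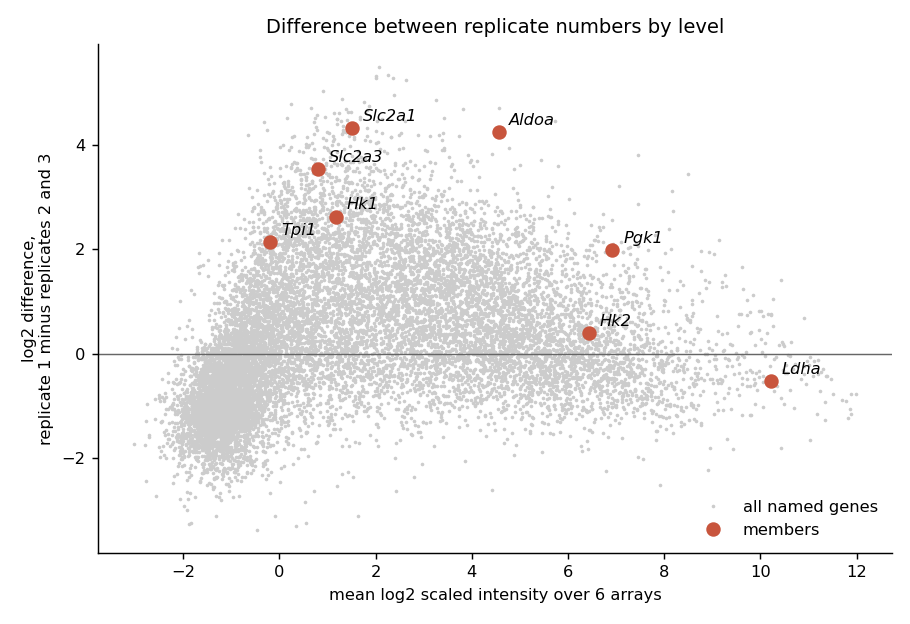
Log2 intensity on the replicate 1 arrays minus that on replicates 2 and 3 (vertical) against mean log2 intensity over 6 arrays (horizontal), with all 13840 named genes in grey and the 8 measured genes in red. Slc2a1 and Aldoa lie near the upper edge at 4.32 and 4.24, and Ldha lies below 0 at -0.52.

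Marker lists of other tissues did not move in one direction with the replicate 1 arrays. The summed intensity of 9 neural tube markers was 226 to 230 on replicate 1 and 88.9 to 128 on the other arrays, most of it Tubb3. The median marker of that list went the other way, at -0.85 on the log2 scale, with 2 markers wholly higher and 4 wholly lower on replicate 1, and Sox1 and Pax6 lay below the array median on all 6 arrays. Surface ectoderm markers (7 measured) summed to 293 to 301 on replicate 1 and 205 to 215 elsewhere, with a median log2 difference of 0.95. Gut endoderm markers (8) summed to 60.5 to 64.5 against 35.4 to 50.1, most of it Cldn6, but their median was -0.61, with 2 markers at least 2-fold higher and 3 at least 2-fold lower, and Foxa1 was below the array median on all arrays. Endothelial markers (8) overlapped in their sum, at 121 to 123 against 98.4 to 129. Their median, however, was 1.67, with 5 at least 2-fold higher, and Kdr went the other way at -0.60. Primitive red cell markers (10) also overlapped in their sum, at 6286 to 7570 against 7393 to 8529. Their median was 0.55, with 3 at least 2-fold higher and 1 at least 2-fold lower. The 10 presomitic markers summed to 1515 to 1598 on replicate 1 and 1580 to 1792 elsewhere. Their median was 0.55, with 4 at least 2-fold higher, Hes7 and Msgn1 the most at 38.5- and 14.7-fold, and 2 wholly lower. Between genotypes the log2 differences of the markers named by rule were 0.56 for Mesp2, -0.39 for Fgf8, -0.29 for Rspo3, -0.45 for Klf1 and for Gata1, -0.46 for Sox2 and -0.49 for Neurog1. They were 0.16 for Pecam1, -0.26 for Kdr, 0.36 for Krt14, -0.77 for Krt15, -0.60 for Foxa2 and 0.21 for Ttr. Rspo3 and Krt14 had arrays that did not overlap, and of these markers 0 were called in limma with or without the block, with unadjusted p under 0.05 in the blocked fit for Mesp2, Sox2 and Foxa2. The part of cell makeup, RNA quality or array handling in the replicate 1 values was not tested.

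The remaining enzymes of the pathway also differed more by replicate than by genotype in the examples that follow. Gapdh, which follows triose phosphate isomerase, read 2067, 880.2 and 1017 in wild type and 1924, 964 and 1029.9 in knockout, a log2 genotype difference of 0.02 (95% interval -0.19 to 0.22 in the blocked fit). Pgam1, phosphoglycerate mutase, read 362, 129 and 161 in wild type and 421, 115 and 139 in knockout, a difference of -0.05 (-0.31 to 0.21). Ldhb, the lactate dehydrogenase of oxidative tissue, read 126, 56.3 and 69.3 in wild type and 144, 51.2 and 66.0 in knockout, a difference of -0.00 (-0.27 to 0.26). These 3 enzymes read 2.05-, 2.89- and 2.23-fold higher on replicate 1, which Ldha did not. Of the 16 other enzymes measured, 6 were at least 2-fold higher and 7 at least 2-fold lower on replicate 1. Among all named genes these shares were 27.4% and 16.6%. Adpgk, an ADP-dependent glucokinase, was lower on replicate 1, at 46.7, 128 and 129 in wild type and 59.7, 118 and 129 in knockout.

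Enolase was represented by the neuronal and muscle isoforms, since Eno1 was not analysed here. Eno3 read 29.3, 19.0 and 17.7 in wild type and 31.2, 13.6 and 15.4 in knockout (log2 difference -0.20). Eno2 had the largest difference among the other enzymes with mean log2 above 0, at 0.84, from a dim probe that read 0.554, 0.614 and 1.30 in wild type and 0.575, 1.79 and 2.47 in knockout. Pklr, the pyruvate kinase of liver and red cells, was next at -0.63, with 5.91, 3.61 and 2.41 in wild type and 5.78, 1.33 and 1.81 in knockout. Their blocked 95% intervals were -0.20 to 1.88 and -1.37 to 0.12, and neither passed the test. Of the aldolase isoforms Aldoc read 4.55, 1.43 and 2.41 in wild type and 4.57, 1.15 and 2.48 in knockout (difference -0.09). Hkdc1 and Pgk2, paralogues of the hexokinases and of Pgk1, had a mean log2 intensity below 0, that is, under about the array median. So did Eno4 (log2 difference 0.04) and Ldhc (-0.94; 0.948 ± 0.561 in wild type and 0.413 ± 0.0634 in knockout, SD, n = 3 each), both with overlapping genotypes.

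Other transporters of the Slc2a family were mostly dim. Slc2a2 stayed under 1 on every array, and Slc2a9 and Slc2a4 had a mean log2 below 0. Slc2a6 averaged 2.14 ± 0.797 in wild type and 1.88 ± 0.491 in knockout, and Slc2a10 averaged 1.35 ± 0.407 and 1.28 ± 0.483 (SD, n = 3 each). Slc2a8 repeated the pattern of Slc2a1 by replicate, at 4.04, 0.294 and 0.366 in wild type and 3.89, 0.362 and 0.604 in knockout. Slc2a5, a fructose transporter, had the opposite pattern and near-equal genotypes, at 2.86, 5.43 and 4.75 in wild type and 2.86, 5.49 and 4.78 in knockout. Slc2a12 (GLUT12) was the transporter whose genotypes did not overlap: 3.14, 3.33 and 2.97 in wild type and 1.48, 1.84 and 2.91 in knockout. Its means were 3.15 ± 0.178 and 2.08 ± 0.741 (SD, n = 3 each), and its log2 difference of -0.66 did not pass (limma adjusted p = 0.999 with the block). Slc16a1 (MCT1), a lactate carrier, read 17.7, 0.940 and 0.660 in wild type and 28.7, 0.980 and 0.984 in knockout, 25.7-fold higher on replicate 1. Slc16a3 (MCT4), the carrier known for lactate export, read 78.0, 40.3 and 41.7 in wild type and 75.7, 62.4 and 42.8 in knockout. Bsg (basigin), the chaperone of both carriers, read 329.7, 105 and 111 in wild type and 316, 108 and 91.3 in knockout (log2 difference -0.11).

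**Figure D4:**
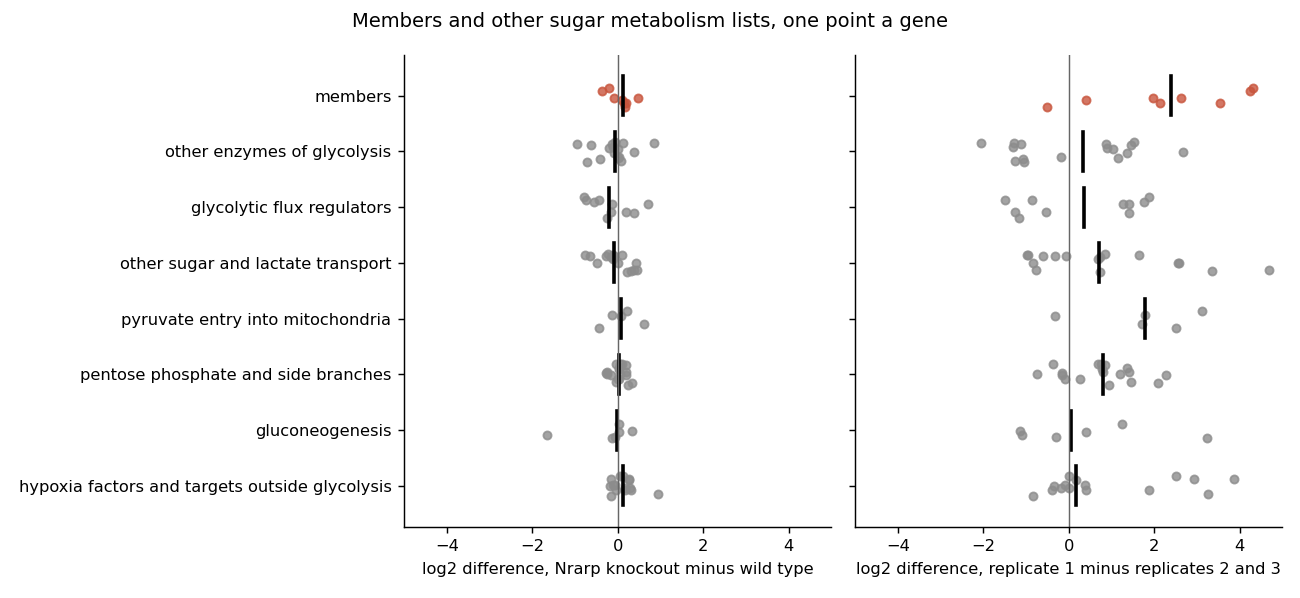
Log2 differences of the genes in each pathway list, one point a gene and a bar at the list median, knockout minus wild type on the left and replicate 1 minus replicates 2 and 3 on the right. Medians on the left lie between -0.21 and 0.13; on the right the 8 measured genes have the highest median, 2.38, and the others lie between 0.06 and 1.79.

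Around the pathway, 7 lists of related genes held 109 genes, of which 86 were measured, and 0 were called in limma with or without the block. An unadjusted p under 0.05 was found for 1 of the 86 in each fit, Pck1. Of the 86, 42 lay above 0 and 44 below it, and the median was -0.00. The genotypes did not overlap in 2 upward (Egln3 and Ndrg1) and 2 downward (Slc2a12 and Pck1), beside 1.83% and 1.48% of all named genes. By list the positive and negative counts and medians were 6, 10 and -0.07 for other enzymes of glycolysis, and 3, 7 and -0.21 for regulators of flux. They were 7, 9 and -0.09 for other sugar and lactate transport, and 3, 2 and 0.08 for pyruvate entry into mitochondria. For the pentose phosphate pathway and side branches they were 11, 7 and 0.03, for gluconeogenesis 3, 3 and -0.02, and for hypoxia factors and targets outside glycolysis 9, 6 and 0.11. Centring each array on its 75th percentile moved the median over all probes from -0.01 to 0.05, so the sign of a list median this close to 0 depends on the scaling.

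The genes of these lists with the largest differences were mostly dim or spread over arrays. Among flux regulators Pfkfb4, a maker of the phosphofructokinase activator fructose-2,6-bisphosphate, differed by 0.71 and Txnip, which limits glucose uptake, by -0.79 on the log2 scale. For pyruvate entry, Pdha1, a subunit of pyruvate dehydrogenase, differed by -0.43 and Pcx, pyruvate carboxylase, by 0.62. Gpd1 (-0.28), the cytosolic glycerol-3-phosphate dehydrogenase, and Pygl (-0.25), the liver glycogen phosphorylase, had smaller differences. In gluconeogenesis G6pc3, a glucose-6-phosphatase, differed by -0.14 and Pck2, the mitochondrial PEP carboxykinase, by 0.03. Their cytosolic relative Pck1 read 0.527, 2.28 and 1.13 in wild type and 0.265, 0.520 and 0.312 in knockout, a log2 difference of -1.66 (unadjusted p = 0.00713, limma adjusted p = 0.999 with the block). All 3 knockout arrays of Pck1 were lower, on a probe at or below the array median on 4 of the 6 arrays.

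Of the hypoxia list, Egln3, an oxygen-sensing prolyl hydroxylase, read 9.33, 8.46 and 8.82 in wild type and 10.2, 9.63 and 12.9 in knockout. Ndrg1 read 2.88, 2.66 and 2.69 in wild type and 3.69, 2.89 and 3.40 in knockout. Both lay higher in all 3 knockout arrays, by 0.29 and 0.27 on the log2 scale, and neither passed the test (limma adjusted p = 0.999 with the block). Vhl, which targets HIF for destruction, differed by 0.94 and P4ha2, a collagen prolyl hydroxylase, by 0.31, both with overlapping genotypes. By replicate, 33 of the 86 genes were at least 2-fold higher and 12 at least 2-fold lower on replicate 1, beside 27.4% and 16.6% of all named genes. Their median log2 difference was 0.70, beside 0.07 for all named genes and 0.64 for the named genes with mean log2 above 0. Over replicates 2 and 3 only, the genotypes did not overlap in 16 of the 86 upward and 13 downward, beside 14.9% and 17% of all named genes. Eno2, Eno3, Pklr, Slc16a1, Slc16a3, Pdha1, Pcx, Pfkfb4, Vhl and P4ha2 were among them.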

How the data were processed

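Total RNA of presomitic mesoderm was made into digoxigenin-labelled cRNA and hybridised to Applied Biosystems AB1700 arrays, 1 per sample, per the labels' protocols. A human array is named in the labels, but organism and probe annotation are mouse. The deposited values are intensities on a linear scale, scaled by the authors to a common array median. Which software, background correction, flags and genome build were used is not given in the sources at hand. Their range was not equalised between arrays, and background handling affects dim probes most.

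Of 33012 probes, 14411 had 1 gene in the annotation, 247 several and 18354 were unnamed here. The brightest probe by mean log2 stands for the 540 genes with more than 1. Intensities were taken to log2 with no offset, filter or further normalization, and genotypes were compared in limma 3.58.1 (R 4.3.3; eBayes with intensity trend). Tests were two-sided, p-values were adjusted over all probes by Benjamini-Hochberg, and calls were made under 0.05. The fit left 4 residual degrees of freedom, or 2 with the replicate block. The limma fit was tested on simulated arrays with known changes. Replicate numbers occur in both genotypes: deviations from group means correlated by 0.757, 0.442 and 0.374 within numbers 1, 2 and 3, so numbers were taken to pair the arrays, and blocked intervals are given. Across numbers 2 and 3 the correlations were 0.397 and 0.419, so the pairing rests on replicate 1, and the labels tie no number to a litter or day.

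The genes, the 7 pathway lists and the 6 marker lists were chosen with earlier results of these data known. Of each list the text names the 2 genes with the largest absolute log2 difference among those with mean log2 above 0, those whose genotypes do not overlap, and paralogues of the 10 genes. Some others were named outside that rule as examples, among them Gapdh, Pgam1, Slc16a3, Bsg and the markers Tubb3, Sox1, Pax6, Cldn6, Foxa1, Hes7 and Msgn1. The alternatives tried were the replicate block, quantile normalization, both together, 75th percentile centring, no trend, array weights, a pseudocount of 1, a minimum mean log2 of 0, all probes of a gene averaged, replicates 2 and 3 only, and each array left out. Figures used Python 3.11.15 and matplotlib 3.10.9. The number of arrays limits precision.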

Additional observations from a re-analysis of the deposited data

How the results depend on the processing

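Under all alternatives run, 0 of the 8 genes were called. With the replicate block the median log2 difference was 0.13 and no gene's direction changed; the block alone or with quantile normalization called 2 of all probes. An unadjusted p under 0.05 occurred for 1 gene each with array weights (Ldha, 0.0430), the block with quantile normalization (Aldoa, 0.0444) and replicates 2 and 3 only (Aldoa, 0.0261). Slc2a3 reversed to -0.67 with array weights and to -0.20 over replicates 2 and 3 only. Array weights also moved the median to -0.06, Slc2a1 to -1.17 and Aldoa to -0.73. Over replicates 2 and 3 only the median was -0.072 and the genotypes of 2 genes, Aldoa (lower) and Ldha (higher), did not overlap, as in 17% and 14.9% of named genes. Leaving out 1 array moved the log2 difference between -1.92 and 0.91 for Aldoa, -0.34 and 1.41 for Hk1, -0.040 and 0.22 for Hk2, -0.85 and 0.47 for Pgk1, -1.80 and 1.08 for Slc2a1, -1.20 and 1.16 for Slc2a3, and -0.59 and 0.83 for Tpi1. Ldha stayed between 0.02 and 0.41, the median lay between -0.72 and 0.87, and 0 to 2 genes had genotypes that did not overlap. Each array left out turned at least 1 gene: 4 without knockout replicate 1, 3 each without knockout replicate 2, knockout replicate 3, wild-type replicate 1 or wild-type replicate 2, and 1 without wild-type replicate 3. Apart from the array left out, the cause was not tested. Tpi1 falls below the minimum for bright probes and had no value there. Dim probes, as of Tpi1, Slc2a3 and Slc2a1 outside replicate 1, limit what can be read of small changes.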
